A study of Mus musculus with 15 samples.

Results

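At 3 months of age, kidneys of male mice that lost ERRγ in the cells reached by Sim1-Cre were compared with those of their littermates, and every gene of that comparison was taken. The comparison held 23393 genes, all the genes measured in the series, and drew by the labels on 6 of its 15 libraries of polyadenylated kidney RNA. The strain was C57BL/6. Controls were ERRg fl/fl mice without Cre, and knockouts were ERRg fl/fl;Sim1-Cre mice, so that both groups carried the floxed alleles. The Cre transgene came only with the knockout, and its own effect cannot be told apart from that of the deletion. The labels give 3 controls and 3 knockouts at this age, and the other libraries are of 3-week-old males and females of the same genotypes. The knockout reaches only cells with a history of Sim1-Cre activity, and RNA of the other cells of the whole kidney is in each library. In such bulk samples, fewer cells of a type and less RNA per cell cannot be told apart.

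ERRγ, encoded by Esrrg, is an orphan nuclear receptor that binds DNA at sites with the core AAGGTCA. With ERRα and the coactivators of the PGC-1 family it is known for switching on genes of the respiratory chain, the TCA cycle and fatty acid oxidation in tissues with a high energy demand. In the kidney, tubule cells spend this energy on the sodium pump, which drives the reabsorption of phosphate, glucose, amino acids and ions along the nephron.

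The makeup of the comparison and its direction bear on all values below. A single read adds a fixed amount to a gene's mean, different for each library, and the amounts seen in low genes gave 5 libraries, against 6 in the labels: libraries A and B, whose reads raise the fold change, and libraries C, D and E, whose reads lower it. Counts are divided by a size factor to make libraries comparable. These factors were 1.378 and 1.115 for A and B and 0.967, 0.848 and 0.807 for C, D and E. The total counts of the single libraries are not known. The letters are not the numbers of the labels, and which labelled library is missing is not known. For genes with a mean of up to 25, the counts of the single libraries could be recovered, and they are given where available. No header says which genotype was divided by which. A positive value is read here as higher in the knockout, since ERRγ is tied to mitochondria and reabsorption by the title of the series and lists of such genes have negative medians, so their direction is part of this reading and not independent evidence. Were the ratio the other way round, every direction given here would be swapped.

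The 3 libraries of knockouts at this age carry "female" in 1 label field and male in the others. The authors' deposited table gave Xist, the RNA of the inactive X chromosome, a mean of 11.93 normalized counts at 3 months, against 23850 in the females at 3 weeks. Ddx3y, on the Y chromosome, had a mean of 1477 at 3 months and 0.83 in the females by the authors' deposited tables. The recovered Xist counts were 10 and 32 in A and B and 9, 8 and 4 in C, D and E, so that no library of the 5 had a female level.

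Esrrg itself had a mean of 1633 normalized counts and a log2 fold change of -0.87 ± 0.57 (SE) by the authors' deposited table, with the status Outlier and no p-value. The gene spans 187608791 to 188214885 of chromosome 1 (plus strand, GRCm38, the build mm10). At 3 weeks the authors' deposited tables gave it 0.82 ± 0.20 in males and 1.04 ± 0.17 in females, on the opposite side of 0. Reads of exons outside the deletion still count, and the sources name no deleted exon, so the values test neither the labels nor the knockout.

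The core of the ERR site was looked for in the 250 bases before the starts of RefSeq genes (GRCm38.p6). Of 807 genes in the lists or named by rule, 621 had such a promoter. At least 34 of these held AAGGTCA on either strand. Of those, at least 14 were called lower in the knockout and at least 3 higher. These are lower bounds, since a chromosome whose promoters are among the 621 was left out when core-bearing genes were collected. Of all tested genes 27.8% were called lower and 29.8% higher. Many of the lists mostly fell, and the calls among the 621 genes were not counted. The 14 against 3 can thus not be read as a link between the core and a direction. The windows shown are of 3 of the genes that were lower, a kallikrein, a glucose transporter and a urate transporter, and of 2 that were higher, an antigen-presenting molecule and a keratin, since the core stands before genes of both directions. Capitals mark AAGGTCA, or TGACCTT where it lies on the other strand, and each window is read in the direction of its gene.
Klk1, chr7:44225114-44225200, plus strand: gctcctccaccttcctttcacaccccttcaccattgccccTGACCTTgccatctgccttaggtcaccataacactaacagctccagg
Slc2a2, chr3:28697841-28697902, plus strand: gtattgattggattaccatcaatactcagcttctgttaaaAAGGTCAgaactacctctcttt
Abcg2, chr6:58584371-58584457, plus strand: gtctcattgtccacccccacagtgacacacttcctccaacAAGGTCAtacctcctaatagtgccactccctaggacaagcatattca
H2-Eb1, chr17:34305617-34305675, plus strand: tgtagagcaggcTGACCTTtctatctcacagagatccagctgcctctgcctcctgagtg
Krt20, chr11:99438154-99438217, minus strand: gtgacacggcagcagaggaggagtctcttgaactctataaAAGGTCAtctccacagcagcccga

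Over all genes the shares of promoters with the core lay close together. The core was in 3.40% of 3471 promoters of genes called lower (95% Wilson interval 2.85% to 4.06%), 2.84% of those called higher and 2.97% of those not called, against 4.08% of all 32851 promoters, which include those of genes hardly measured here. Among genes with a mean of at least 50 the order of the first and last turned, with 3.36% of promoters of genes called lower against 2.88% of all 12018. Among genes called lower it was in 5.6% of 232 promoters where the log2 fold change was at most -2, in 4.06% between -2 and -1 and in 2.88% above -1. The longer element TNAAGGTCA, which contains the core, was in 0.807% of promoters of genes called lower, 0.872% of those called higher, 0.695% of those not called and 1.14% of all. In the same size classes of genes called lower as for the core, TNAAGGTCA was in 1.29%, 1.22% and 0.577%. Its form TCAAGGTCA was in 0.173% of promoters of genes called lower, 0.281% of those called higher, 0.347% of those not called and 0.387% of all. In the size classes TCAAGGTCA was in 0%, 0.203% and 0.177%, from 6 promoters in all. TGACGTCA, the cyclic AMP response element, was in 2.22% of promoters of genes called lower, 1.94% of those called higher, 2.76% of those not called and 1.55% of all. These are matches of letters in a short window and are given as a description.

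Of 12828 tested genes, 7382 (57.5%) were called different at an adjusted p under 0.05 by the authors' deposited table (DESeq2). Higher in the knockout were 3819 (29.8%) and lower were 3563 (27.8%). With a change of at least 2-fold as well, 2434 (19.0%) were higher and 1235 (9.63%) lower. The median log2 fold change of all tested genes was 0.01. With libraries scaled to total counts in place of the authors' size factors every log2 fold change gains 0.495, and the higher share of the calls goes from 51.7% to 84.0%. Of all 12828 tested genes 7107 were then called higher and 1355 lower, which is the background for list counts with total counts. Changes below are on the authors' scale. A list or named gene whose value printed here for 3 months changes sign with this scaling is given with that turn. The balance of calls moved from higher to lower with abundance: of the genes with a mean from 10 to 50, 847 were called higher and 196 lower, while over 20000 it was 3 higher and 25 lower.

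**Figure D1:**
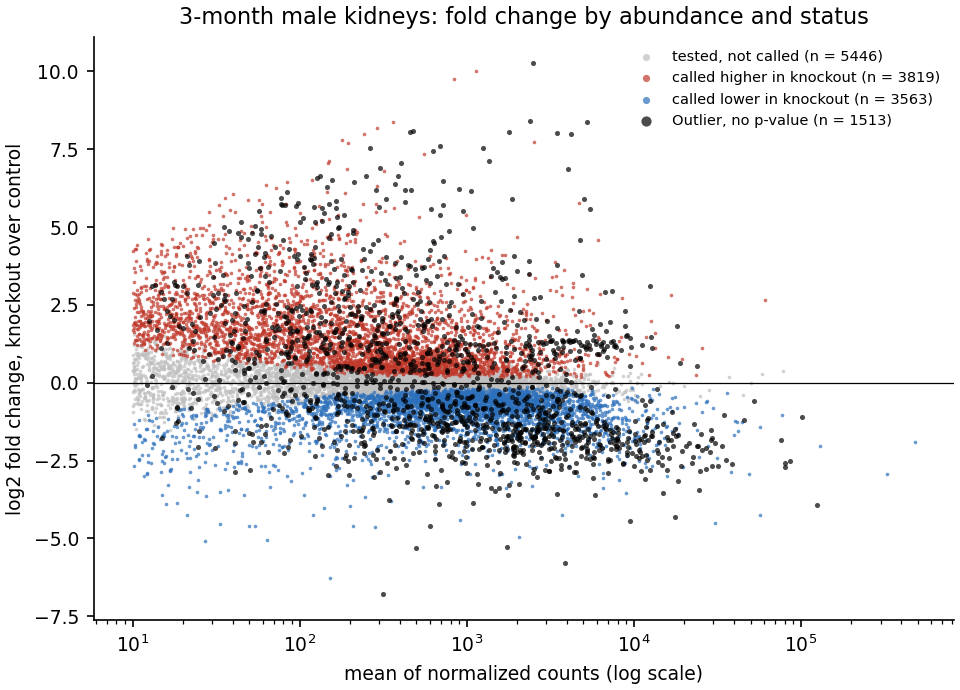
The plot shows 1 point per gene at 3 months, with the mean of normalized counts on a log axis and the log2 fold change of knockout over control; gray points were tested and not called, red (3819) and blue (3563) points were called, and black points (1513) have the status Outlier and no p-value. Red points reach up to 10.02, for Krt5, blue points dominate among the most abundant genes, and black points lie at both edges of the cloud.

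The 12 largest rises included a pair of keratins, a pair of gasdermins and a marker of tubular damage. Krt5, a keratin of basal epithelial cells on chromosome 15 (101707070 to 101712898, minus strand, GRCm38), was at 10.02 ± 0.50 by the authors' deposited table (log2, SE, adjusted p = 3.07e-85). Its partner Krt14 was at 8.37 ± 0.61, and Lcn2, the iron-binding lipocalin known as NGAL and a marker of tubular injury, at 7.73 ± 0.25 (adjusted p = 3.45e-206) by the authors' deposited table. Gsdmc2 and Gsdmc3, which belong to a cluster of near-identical gasdermin genes and may share reads, were at 9.76 and 8.19 by the authors' deposited table. The others of the 12 largest, from 8.00 down to 6.86 by the authors' deposited table, were Fat2, Syt8, Clca2, S100a14, Sprr2f, Col17a1, a collagen of hemidesmosomes, and Gabrp.

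The 12 largest falls included transporters, a kallikrein and a calcium-binding protein. Slc34a3, a sodium-phosphate cotransporter of the proximal tubule (chromosome 2 from 25228898 to 25234364, minus strand, GRCm38), was at -4.39 ± 0.18 (adjusted p = 4.01e-125) and Slc22a7, an organic anion transporter, at -4.95 ± 0.27 (adjusted p = 1.01e-73) by the authors' deposited table. Klk1, tissue kallikrein of the connecting tubule, whose core-bearing promoter is shown above, was at -4.50 ± 0.27 with a mean of 30585 by the authors' deposited table. It belongs to a family of near-identical genes, so part of its reads may be shared. Pvalb, parvalbumin of the distal convoluted tubule, was at -4.60 ± 0.34, and Hrg, histidine-rich glycoprotein, at -5.06 ± 0.59 by the authors' deposited table. Lrrc66 had the lowest value, -6.28 ± 0.54, and Cyp4b1, Cyp2d12, Nepn, Armc12, Pde6a and Vstm2a lay between -4.64 and -4.02 by the authors' deposited table.

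The most abundant tested RNAs of the kidney mostly fell. Gpx3, the secreted glutathione peroxidase of the proximal tubule, had a mean of 480012 and was at -1.89 ± 0.25, and Kap, the androgen-regulated protein of the proximal tubule, had a mean of 326660 and was at -2.94 ± 0.30 by the authors' deposited table. Fth1, the heavy chain of ferritin, was at -1.05 ± 0.12 by the authors' deposited table. Among abundant genes that rose, Spp1, osteopontin, was at 2.66 ± 0.23 and Apoe, apolipoprotein E, at 2.82 ± 0.35 by the authors' deposited table. Ctsd, Serinc3 and Igfbp7 rose by 1.11, 0.75 and 0.24 by the authors' deposited table.

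Low genes with recovered counts show what such calls look like in single libraries. Cav3, a caveolin of muscle, had 70 and 41 counts in A and B and 0, 0 and 0 in C, D and E. Ccl12, a chemokine for monocytes, had 93 and 52 against 1, 0 and 0, and Klb, the co-receptor of FGF21 and FGF19, 53 and 38 against 0, 0 and 1. Nr0b2, the nuclear receptor SHP, had 0 and 2 counts against 27, 15 and 22, and Masp2, a protease of the complement lectin pathway, 5 and 1 against 34, 29 and 28. These 5 genes were chosen among the 6 in each direction with the largest change among called genes with recovered counts, so that their sides lie apart by this choice. Over all 951 tested genes with recovered counts and a mean from 10 to 25, the sides did not overlap in 67.7%. The fold changes were moderated towards 0: of 585 tested genes whose recovered counts differed by at least 2-fold between the sides, 585 had a deposited log2 fold change closer to 0, at a median of 85.5% of the ratio of counts.

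Genes of the respiratory chain fell, list by list. Of 34 tested genes of complex I, which takes electrons from NADH, 30 fell and 0 rose, with a median log2 fold change of -0.64. Ndufa10, one of its accessory subunits, was at -1.24 ± 0.13 by the authors' deposited table. Of 25 genes for cytochrome c and complexes II, III and IV, 25 fell, with a median of -0.73. Uqcrc2, a core protein of complex III, was at -1.33 ± 0.10 and Sdha, the flavoprotein of complex II, at -1.55 by the authors' deposited table. Of 21 genes of ATP synthase and nucleotide exchange, 18 fell, and 1 rose, Ckmt1, the mitochondrial creatine kinase, at 0.75 ± 0.15 by the authors' deposited table. Atp5b, the catalytic beta subunit, was at -1.43 ± 0.18 and Slc25a5, an ADP/ATP carrier, at -1.38 ± 0.11 by the authors' deposited table. Scaled to total counts, complex I had 11 genes lower and 3 higher, complexes II to IV 11 and 1, and ATP synthase 9 and 4.

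The fuel pathways that feed the chain fell further. All 17 tested genes of the TCA cycle fell, with a median of -1.40, and 15 were still lower after scaling to total counts. Pcx, pyruvate carboxylase, was lowest at -2.72 ± 0.25, and Idh3g, a subunit of the NAD-linked isocitrate dehydrogenase, was at -1.39 ± 0.09 by the authors' deposited table. All 24 tested genes of fatty acid oxidation fell, with a median of -1.58, and 23 did so with total counts. Cpt1a, which admits fatty acids to mitochondria, was at -2.01 ± 0.09 (adjusted p = 9.24e-102), and Etfdh, which passes their electrons to ubiquinone, at -1.93 ± 0.13 by the authors' deposited table. Ehhadh, the bifunctional enzyme of the peroxisomal pathway, was at -2.86 by the authors' deposited table. A further 8 members had the status Outlier, with values from -2.72 for Acsm2 to -0.81 for Pdk4 by the authors' deposited table.

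The regulators of this programme were lower too. Among 8 tested ERR family members and partners, 6 fell and 1 rose, with a median of -0.91. Esrra, encoding ERRα, was at -1.12 and Ppargc1b, a PGC-1 coactivator, at -2.43 ± 0.32 by the authors' deposited table. Ppara, the fatty-acid-sensing nuclear receptor, was at -3.01 ± 0.22 by the authors' deposited table. Nrf1, nuclear respiratory factor 1, rose, at 0.34 by the authors' deposited table. Tfam, the packaging factor of mitochondrial DNA, was at -0.68 ± 0.14 by the authors' deposited table, and this call was lost with total counts. The other 5 members were Outlier genes: among them, besides Esrrg, the authors' deposited table gave -1.51 for Esrrb, -1.32 for Ppargc1a and -2.13 for Hnf4a.

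Of 75 tested genes of the mitochondrial ribosome, 39 fell and 4 rose on the authors' scale. With total counts 5 were lower and 25 higher, against 1355 lower and 7107 higher of all 12828 tested genes. The median of -0.30 turned to 0.20. Mrps5 and Mrps35 were at -1.11 and -1.08 and Mrpl33 at 1.14 ± 0.16 by the authors' deposited table. Of the cytosolic ribosomal genes, 10 were tested, of which 6 rose and 0 fell (8 and 0 with total counts), among them Rpl4 at 0.82 ± 0.30 and Rpl8 at 0.91 ± 0.30 by the authors' deposited table. Another 51 were Outlier genes, all positive, with a median of 1.26. Many ribosomal genes have near-identical processed copies that can take or give reads, and Rpl30, Rpl34 and Rps27, with means of 7.17, 10.2 and 19.3, were far below the rest of the list.

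Glycolysis and cholesterol lists held calls of both directions. Of 14 tested glycolysis genes, 6 rose and 4 fell, the falls a share near the background of 27.8%. With total counts 7 were higher and 1 lower, against 7107 and 1355 of all 12828 tested genes. Hk2, the hexokinase of glycolytic cells, was at 4.76 ± 0.44 and Slc16a3, a lactate exporter, at 4.17 ± 0.33, while Pfkm, the muscle-type phosphofructokinase, was at -0.98 ± 0.10 by the authors' deposited table. Of 4 tested genes for gluconeogenesis, fructose use and ammoniagenesis, 4 fell, including Glud1, glutamate dehydrogenase, at -1.59 ± 0.22 by the authors' deposited table. The other 8 were Outlier genes, all negative (7 with total counts), with Pck1 and G6pc, the gate enzymes of glucose output, at -3.93 ± 0.33 and -3.54 ± 0.36 by the authors' deposited table. Of 17 genes of cholesterol synthesis, 5 rose and 4 fell, shares near the background of 29.8% and 27.8%, and with total counts 11 were higher and 1 lower. On the authors' scale Fdps was at 2.18 ± 0.31 and Hmgcs1 at -1.59 ± 0.39 by the authors' deposited table.

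Of 16 tested proximal tubule genes, which serve bulk reabsorption and secretion, 15 fell and 0 rose, with a median of -2.19, and 13 were lower with total counts. Slc7a9, a light chain of the cystine transporter, was at -2.29 ± 0.09 (adjusted p = 1.03e-129) and Slc6a19, the neutral amino acid transporter, at -3.39 ± 0.22 by the authors' deposited table. Slc5a2, the glucose transporter SGLT2, was at -3.54, and Slc2a2, its basolateral partner GLUT2, at -2.20 by the authors' deposited table. The member not called was Pdzk1ip1, at -0.25 by the authors' deposited table, which turns positive with total counts. The other 30 were Outlier genes without a test, 29 of them negative, with a median of -2.17. Lrp2 and Cubn, the receptors of protein uptake, were at -2.60 and -2.68, and Cyp27b1, the enzyme that activates vitamin D, was the positive one at 1.65 by the authors' deposited table.

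In the distal nephron most genes had no p-value. Of 21 thick ascending limb genes only 4 were tested: Cldn10, a tight junction protein, and Cyp2j9 fell, at -1.66 ± 0.27 and -1.87 ± 0.28, while Irx1 and Irx2 were not called by the authors' deposited table. Of the 16 Outlier genes of this list 13 were negative (12 with total counts), with Egf, epidermal growth factor, at -3.44 and Slc12a1, the furosemide-sensitive cotransporter, at -0.71 by the authors' deposited table. Of 8 tested genes of the distal convoluted and connecting tubule, 5 fell and 1 rose, Stk39, the kinase SPAK, at 0.85 by the authors' deposited table. Trpm6 and Trpm7, magnesium channels, were at -1.19 and -1.41, and the Outlier gene Slc12a3, the thiazide-sensitive cotransporter, at -2.82 by the authors' deposited table.

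The collecting duct lists held intercalated cells, mostly without a test, and principal cells. Of the intercalated cell genes, which handle acid and base, 4 were tested and 1 fell, Atp6v0a4, a proton pump subunit, at -1.70 ± 0.33 by the authors' deposited table. This share is near the background of 27.8%. Their median was 0.01, and with the 16 untested Outlier genes, all negative (12 with total counts), it was -1.0. Slc4a1, the chloride-bicarbonate exchanger of type A cells, was at -5.32 ± 0.39, and Foxi1, the transcription factor of these cells, at -0.001 with no p-value by the authors' deposited table. The value of Foxi1 turns positive with total counts. Of 7 tested principal cell genes 5 rose and 0 fell. Aqp3, the basolateral water channel, was at 0.77 ± 0.26, Fxyd4 at 2.58 ± 0.17 and Elf5, a transcription factor, at 5.21 ± 0.34 by the authors' deposited table. Aqp2, the water channel regulated by vasopressin, was an Outlier gene at 2.29 by the authors' deposited table. Some of these, such as Krt18 and Gata3, are also known from urothelium, whose markers are described below, and the part of urothelial RNA in them was not tested.

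The directions of the podocyte and endothelial lists hung on the scaling. Of 13 podocyte genes 6 fell and 3 rose, but with total counts 3 were lower and 6 higher, and the median of -0.25 turned to 0.25. Nphs1, nephrin of the filtration slit, was at -1.01 ± 0.20 and Kirrel, its neighbour there, at 1.28 ± 0.17 by the authors' deposited table. Of 12 endothelial genes 3 fell, a share near the background of 27.8%, and 1 rose, with a median of 0.17. With total counts 0 were lower and 7 higher. That scaling put 7107 of all 12828 tested genes higher and 1355 lower. The share of endothelial genes called higher with it is near this background, and that of podocyte genes does not exceed it. Podxl, Kdr and Ehd3 were at -0.76, -0.62 and -0.52, calls lost with total counts, and Cdh5, VE-cadherin, at 0.60 ± 0.23 by the authors' deposited table. Of 20 tested polycystic and nephronophthisis genes 8 fell and 0 rose, but with total counts 3 were lower and 6 higher, and the median of -0.26 turned to 0.24. Pkd2, polycystin 2, was at -1.17 by the authors' deposited table.

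**Figure D2:**
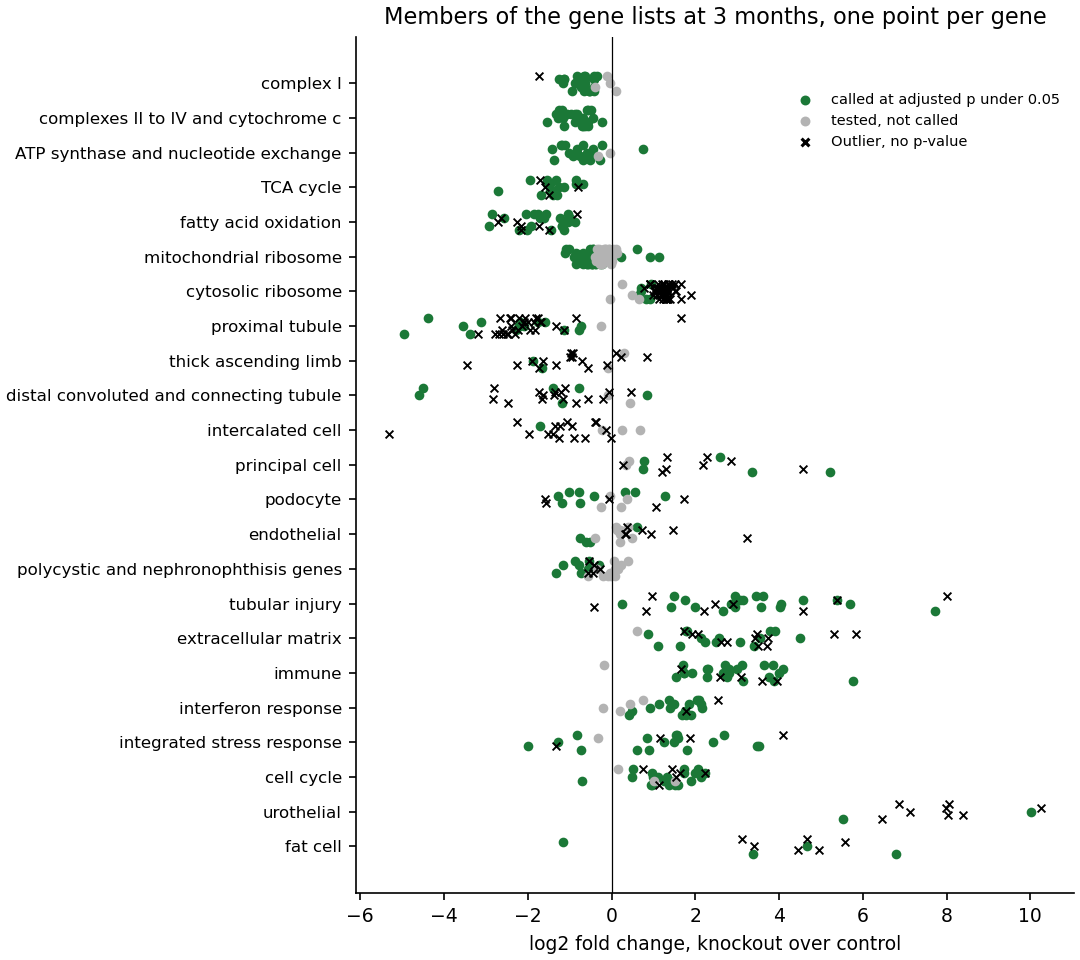
Each point is a gene of a list, placed by its log2 fold change of knockout over control at 3 months; green points were called at an adjusted p under 0.05, gray points were tested and not called, and crosses are Outlier genes without a p-value. TCA cycle, fatty acid and proximal tubule lists lie left of 0, matrix, immune and urothelial lists to the right, and crosses make up most of the cytosolic ribosome and of the distal segments.

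Genes of tubular injury rose as a block. All 20 tested members rose, with a median of 3.10, against 29.8% of all tested genes. Besides Lcn2, complement C3 was at 4.58 ± 0.11, with an adjusted p listed as 0, and Vcam1, an adhesion molecule of injured proximal tubule cells, at 4.05 ± 0.18 (adjusted p = 9.43e-109) by the authors' deposited table. Cp, ceruloplasmin, was at 3.07 ± 0.15 and Sox9, a factor of tubule repair, at 3.57 by the authors' deposited table. Ccl2, the monocyte chemokine, was at 5.69, and Krt20, whose promoter is shown above, at 5.38 by the authors' deposited table. Of 9 Outlier members 8 were positive, with Havcr1, the injury molecule KIM-1, at 5.38 and Krt19 at 8.01 by the authors' deposited table. The negative one was Fga, a fibrinogen chain, at -0.42 by the authors' deposited table, which turns positive with total counts. Krt7, Krt19 and Krt20 are also known from urothelium, and its part in their values was not tested.

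Matrix genes and markers of matrix-making cells rose. Of 16 tested extracellular matrix genes 15 rose and 0 fell, with a median of 2.37. Mgp, an inhibitor of calcification, was at 3.07 ± 0.08, with an adjusted p listed as 0, and Mmp2 and Mmp14, matrix proteases, were at 3.80 ± 0.17 and 3.41 ± 0.17 by the authors' deposited table. Postn, periostin, was at 4.50 and Tgfb2 at 3.91 by the authors' deposited table. The 12 Outlier members were all positive, with a median of 3.45, and included Col1a1 at 3.43, Col3a1 at 3.50 and Timp1 at 5.32 by the authors' deposited table. Of 9 tested fibroblast and pericyte genes 8 rose, with Acta2, smooth muscle actin, at 3.16 ± 0.25 and Pdgfrb at 0.77 by the authors' deposited table.

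Immune genes rose together with interferon-induced genes. Of 24 tested immune genes 23 rose and 0 fell, with a median of 2.79. Lyz2, the lysozyme of macrophages, was at 5.77 ± 0.20 (adjusted p = 4.86e-177), and the complement genes C1qa, C1qb and C1qc, made by macrophages, were at 3.87, 4.09 and 4.01 by the authors' deposited table. H2-Aa, H2-Ab1 and H2-Eb1, chains of MHC class II, were at 3.00, 2.81 and 2.77, the last with an adjusted p listed as 0 by the authors' deposited table. The recovered counts of Cd3e, a T cell receptor chain, were 30 and 29 in A and B and 7, 5 and 2 in C, D and E. Those of S100a8, a protein of neutrophils, were 44 and 27 against 1, 6 and 0. In both genes the sides did not overlap, as in 67.7% of tested genes with recovered counts. Of 20 interferon response genes 16 rose and 0 fell, with Ifit3 at 2.09 ± 0.18 and Irf7 at 1.39 ± 0.18 by the authors' deposited table.

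Proliferation and stress genes rose with exceptions. Of 24 tested cell cycle genes 20 rose and 1 fell, Tyms, thymidylate synthase, at -0.70 by the authors' deposited table. Mcm3, of the replicative helicase, was at 1.98 ± 0.19 and Cdk1 at 2.07 by the authors' deposited table. The kinase Aurkb had 83 and 26 recovered counts in A and B against 7, 6 and 5, so that A was the higher of its side. The sides did not overlap, which held for 67.7% of tested genes with recovered counts. Of 18 genes of the integrated stress response 13 rose and 4 fell. Nupr1 was at 3.51 ± 0.22, Atf3 at 3.47 ± 0.39 and Asns, asparagine synthetase, at 2.42, while Shmt2, a mitochondrial folate enzyme, was at -1.99 by the authors' deposited table. Of 11 immediate early genes 9 rose and 0 fell, with Junb at 2.68 ± 0.36 and Myc at 1.69 ± 0.15 by the authors' deposited table.

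Genes known to be higher in male kidneys fell where they were tested. Of 5 tested, 5 fell, with Kap and Cyp4b1 given above, Cyp2d9 at -2.60 ± 0.22 and Cyp2e1 at -2.04 ± 0.13 by the authors' deposited table. The other 10 were Outlier genes, 9 of them negative (8 with total counts), with Slco1a1 at -5.80 and Slc7a13 at -4.44, and Gsta4 positive at 2.73 by the authors' deposited table. Of 5 tested genes listed as higher in female kidneys 4 fell and 1 rose, Abcc3, an export pump, at 5.40 ± 0.41 by the authors' deposited table. The other 6 were Outlier genes, 3 positive and 3 negative, with Gstm1 at 1.81 and Slco1a6 at -1.92 by the authors' deposited table. Of the falls, Cyp7b1 and Cyp2d12 had means of 1834 and 3706 here, against 466 and 330 in males at 3 weeks. Whether the listed genes are female-biased was not tested, as no females were taken at 3 months. Of the Y-linked genes, Ddx3y was at -0.65 ± 0.10 (adjusted p = 1.75e-09), Uty at -0.59 ± 0.17 and Kdm5d at -0.42 ± 0.16 by the authors' deposited table. Eif2s3y, the other Y-linked gene of the list, was not called, at -0.31 (adjusted p = 0.172) by the authors' deposited table, and turns positive with total counts. The calls of Ddx3y and Uty were lost with total counts, and Kdm5d then stood at 0.08.

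Markers of urothelium and of fat cells were also mostly higher. Of 10 urothelial genes, 2 were tested and both rose, Krt5, given above, and Trp63, the basal cell factor p63, at 5.52 ± 0.43 by the authors' deposited table. The other 8 were Outlier genes, all positive, with Upk3a, Upk1b and Upk2, plaque proteins of the urothelium, at 8.39, 8.00 and 7.13 by the authors' deposited table. The summed mean of the list was 18950 normalized counts, of a mean total of 18800000. Of the fat cell list, 3 of 4 tested genes rose, Retn, resistin, at 6.80 ± 0.42, Plin1, perilipin, at 4.67 ± 0.50 and Fabp4 at 3.39 ± 0.31 by the authors' deposited table. Lpl, lipoprotein lipase, fell, at -1.17 ± 0.25 by the authors' deposited table, and 6 further members were positive Outlier genes, with Adipoq, adiponectin, at 4.68. Recovered counts of Ucp1, of brown fat, were 42 and 9 in A and B against 0, 1 and 0, and those of Lep, leptin, 7 and 70 against 0, 0 and 0. A was thus the higher of its side for Ucp1 and B for Lep. Of 7 adrenal cortex genes 1 was tested and not called, and the others had means under 10 and no test. Among the untested, Mc2r had 18 and 19 recovered counts in A and B against 1, 2 and 0. Those of Cyp21a1 were 5 and 6 against 0, 1 and 0, and those of Hsd3b1 1 and 1 against 1, 5 and 0. With Outlier and Low genes kept, 2 of 6 adrenal cortex genes would be called higher and 0 lower. Both red cell genes that were tested fell, and those calls were lost with total counts. The globin genes Hba-a1, Hba-a2 and Hbb-b1, which have near-identical copies, were listed at a mean of 0. Neither the share of such tissue in each kidney nor its part in any list above was tested.

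The genes with the status Outlier were a sizeable group in their own right. They were 1513 of the 23393 genes (6.47%) and held 23.1% of all normalized counts. The status Low covered 9052 genes (38.7%), all with a mean of up to 9.968, and 12828 (54.8%) were tested. Outlier genes have a fold change and a standard error but no p-value, and no source used here gives the rule of the status. Of the 1513, 724 had positive and 789 negative values (815 and 698 with total counts), with a median absolute log2 fold change of 1.51, against 0.55 in tested genes, and a median standard error of 0.47, against 0.21. A change of at least 2-fold in either direction was listed for 71.2% of them and for 29.1% of tested genes.

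The share of Outlier genes was highest among abundant genes. It was 5.81% of genes with a mean from 10 to 50, 11.2% from 50 to 200, 8.24% from 200 to 1000, 12.2% from 1000 to 5000, 34.0% from 5000 to 20000 and 48.5% over 20000, or 33 of 68 genes. Pck1, phosphoenolpyruvate carboxykinase, was the most abundant, with a mean of 125749 and -3.93 ± 0.33 by the authors' deposited table. Atp1b1, a subunit of the sodium pump, was at -1.21 ± 0.41, and Slc34a1, the main sodium-phosphate cotransporter, at -2.51 ± 0.58 by the authors' deposited table. Acsm2, Slc27a2 and Ndrg1 were at -2.72, -2.59 and -1.84, and Umod, uromodulin, at -0.57 ± 0.60, less than its standard error, by the authors' deposited table. The values largest against their standard error were positive for Krt15 at 10.26, Upk3a, Sprr1a at 8.37, Capn13 at 8.09, Foxa1 at 8.05 and Krt19, and negative for Pck1, Slc4a1, G6pc, Enpp6 at -3.60, Slc16a14 at -4.60 and Aspdh at -3.85 by the authors' deposited table.

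**Figure D3:**
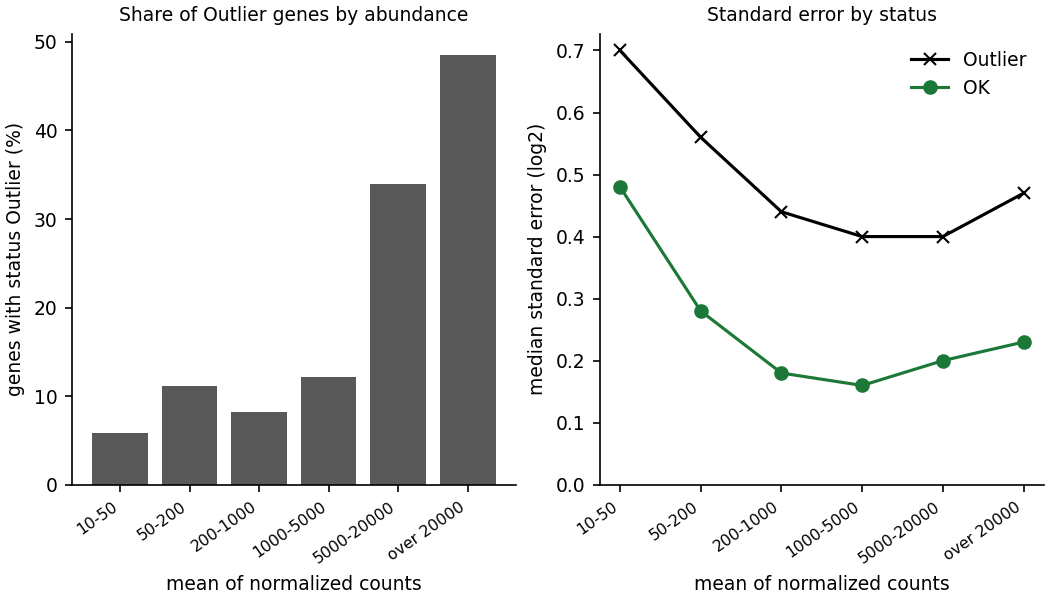
The left panel gives the percentage of genes with the status Outlier in 6 bins of the mean of normalized counts, and the right panel the median standard error of the log2 fold change of Outlier (crosses) and tested (circles, OK) genes in the same bins. The share is 5.81% in the lowest bin and 48.5% in the highest, and the standard errors of Outlier genes are above those of tested genes in every bin.

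Recovered counts show where these genes vary. Of 42 Outlier genes with a mean from 10 to 25, 34 had counts that could be recovered. The median difference between A and B was 2.97 on the log2(normalized count + 1) scale, against 0.58, 0.78 and 0.69 between the pairs of C, D and E. In 951 tested genes of the same abundance it was 0.67 between A and B and 0.49, 0.47 and 0.56 between the others. A and B differed by more than every pair of C, D and E in 32 of the 34 Outlier genes (94.1%) and in 39.5% of the tested genes. They differed by at least 8-fold in 16 Outlier genes (47.1%) and in 2 tested genes (0.21%). The spread that goes with the status thus lay between the 2 libraries on the knockout side in nearly all genes that could be read.

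Which of A and B was nearer to the controls differed between genes. Among 22 Outlier genes with positive values B was above A in 14, with median normalized counts of 12.0 in A, 55.2 in B and 2.07, 1.18 and 1.24 in C, D and E. Vsig4, a complement receptor of resident macrophages, had 16 and 109 counts in A and B and 0, 0 and 0 in the others. Rxfp1, the relaxin receptor, had 1 and 93 against 0, 0 and 0. In the opposite order, Sox11 had 99 and 11 against 0, 1 and 3. Among 12 with negative values A was above B in 10, with medians of 14.9 in A, 0.90 in B and 30.5, 20.1 and 25.4 in the others. Cyp4f14, a fatty acid hydroxylase, had 15 and 1 counts against 35, 37 and 26, and Gbp10, a guanylate-binding protein, 10 and 0 against 29, 17 and 14. An exception in kind was Capn11, a calpain, with 0 and 17 against 44, 0 and 0, where a control library stood apart. These genes were chosen after their values were seen, as examples of each order. Whether abundant Outlier genes follow the same pattern could not be read, since only means up to 25 give counts.

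**Figure D4:**
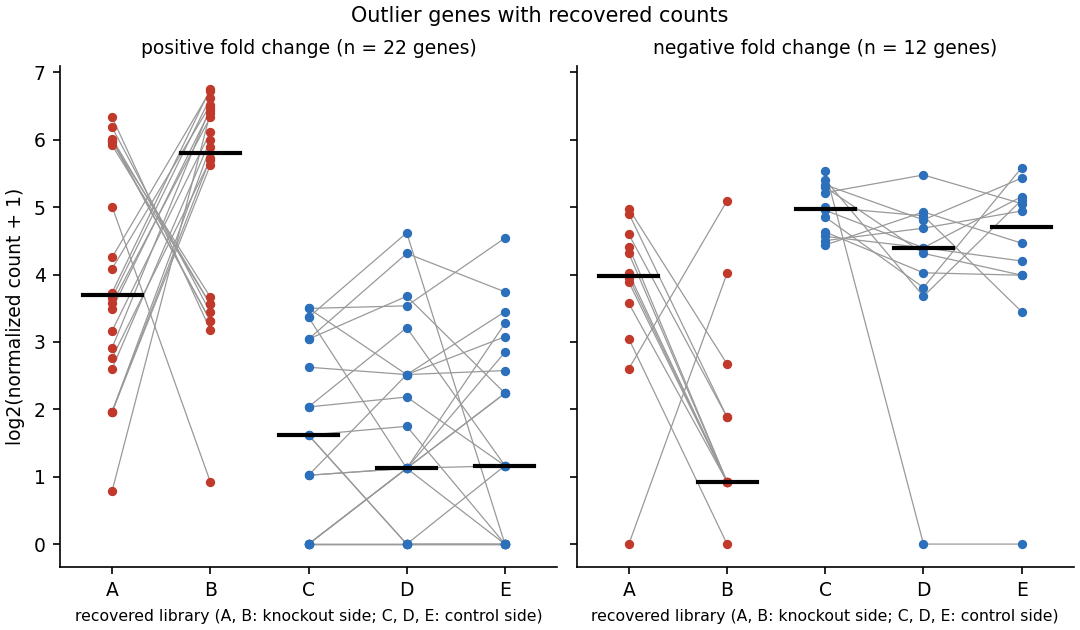
Lines join the values of 1 Outlier gene in the 5 recovered libraries, as log2(normalized count + 1), for 22 genes with positive (left) and 12 with negative fold changes (right); red points are A and B, blue points C, D and E, and black bars the medians over genes. Most lines on the left climb from A to B, and most lines on the right fall from A to B, where the median normalized count in B is 0.90.

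Part of these genes were outliers or called at 3 weeks as well. Of the 1513, 205 (13.5%) had the status Outlier in the males at 3 weeks as well, against 2.62% of all genes, and 332 (21.9%) in the females, against 3.6%. In the males at 3 weeks 706 of the negative ones were tested and 308 of them (43.6%) were called lower there, while of 580 positive ones 149 (25.7%) were called higher. The background at 3 weeks was 8.52% lower and 8.81% higher, 17.3% together, of 14657 tested genes. Opposite calls were made for 26 of the negative and 25 of the positive ones.

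The difference between genotypes was compared with that at 3 weeks. Of 12355 genes tested in males at both ages, the fold change differed for 3418 (27.7%), by the ratio of the difference to its standard error with Benjamini-Hochberg adjustment, 2076 of them (16.8%) above and 1342 (10.9%) below the value at 3 weeks. With both ages scaled to total counts, 3730 were above and 548 below. Of 3598 genes called higher at 3 months 917 (25.5%) were called higher at 3 weeks, which was 88.2% of the 1040 called there. Of 3438 called lower 658 (19.1%) were, or 75.4% of 873. Opposite calls were made for 41 and 9 genes. The tables come from different libraries, depths and normalizations, and both moderate fold changes towards 0. The largest standard error was 1.1 at 3 months and 0.44 at 3 weeks in males. Whether the moderation was equally strong at both ages was not tested. The sizes, and the calls of a difference that use these values and errors, carry this limit. By the same reading of single reads, the comparison of males at 3 weeks held 2 libraries on each side. The labels give 2 controls and 3 knockouts there, and which knockout is missing is not known.

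The lists differed in how much they changed between the ages. Of 17 TCA cycle genes 12 were below their value at 3 weeks and of 24 fatty acid oxidation genes 17, while of 34 complex I genes 0 were below and 1 above. The median of complex I was -0.65 at 3 weeks and -0.64 at 3 months on the authors' scale. With total counts every log2 fold change gains 0.178 at 3 weeks and 0.495 at 3 months, so that these medians lie further apart. The list counts of this paragraph were not redone with total counts. Of 17 tubular injury genes 14 were above their value at 3 weeks, of 24 immune genes 16, of 20 interferon response genes 12 and of 9 matrix genes 8. Of 14 proximal tubule genes 10 were below, and the median of the list was -0.76 at 3 weeks.

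Single genes show these shifts. Gsdmc2 and Abcc3 were at 9.76 and 5.40 at 3 months and at 0.40 and -0.46 at 3 weeks by the authors' deposited tables. Lyz2, Scel and Angpt2, an antagonist of the receptor Tie2, were at 5.77, 4.55 and 3.01 at 3 months and at 1.53, -0.13 and -0.55 at 3 weeks by the authors' deposited tables. Cyp7b1, an oxysterol hydroxylase, was called in opposite directions, at -3.20 ± 0.34 at 3 months and 1.57 ± 0.21 at 3 weeks by the authors' deposited tables. Ppara, Mttp, which loads lipid onto apolipoprotein B, and Acot12 were near -3 at 3 months and between -0.41 and -0.20 at 3 weeks, where none was called by the authors' deposited table. Klk1, by contrast, was at -4.50 and -4.48 by the authors' deposited tables, and Pvalb at -4.60 and -3.87, and neither difference was called (adjusted p = 0.969 and 0.228, normal test of the difference).

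**Figure D5:**
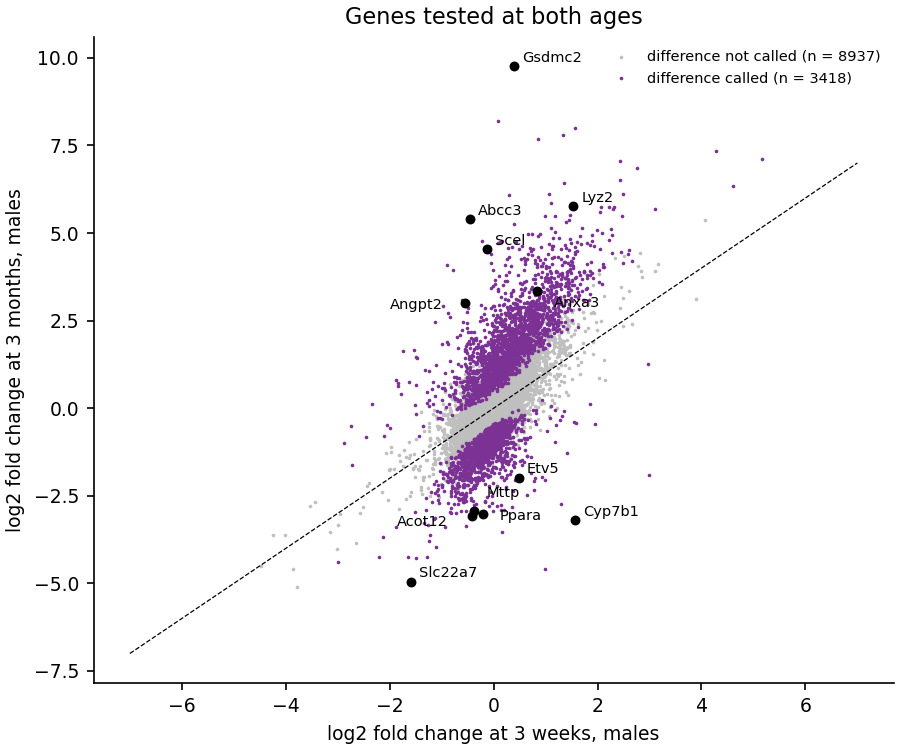
Each point is a gene tested in males at both ages, with its log2 fold change at 3 weeks on the horizontal and at 3 months on the vertical axis; purple points (3418) differed between the ages, gray points (8937) did not pass, the dashed line marks equal values, and the black points are the 12 genes named by rule. Gsdmc2 lies highest above the line, and Cyp7b1 lies below it with values on opposite sides of 0.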

How the data were processed

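Per the labels' protocols, stranded libraries (TruSeq Stranded mRNA) were made from polyadenylated RNA of mouse kidneys, and groups were taken from the titles. The submitters' processing notes name STAR, HOMER, DESeq2 and the build mm10, without versions. What the authors deposited for 3 months is 1 comparison of 23420 rows, with no values per library. Its signal column holds each gene's mean of normalized counts over the libraries, per the file headers. The log2 fold changes and standard errors are the authors' deposited estimates, from DESeq2 by their headers and moderated towards 0 on the values. In 100% of genes the p-values the authors deposited were those of a 2-sided normal test of fold change over standard error, and the adjusted ones were a Benjamini-Hochberg adjustment over genes with the status OK. They measure only the spread between these libraries, which the labels do not tie to separate animals by name.

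From these, with Python 3.11.15, pandas 2.3.3, numpy 2.4.6 and scipy 1.17.1, 27 symbols turned into dates were dropped, leaving 23393 genes, and genes were called at an adjusted p under 0.05. The report draws on these calls, on list counts and medians, and on the comparison of ages, a normal test of the difference of 2 fold changes adjusted over 12355 genes. On simulated data this test called 80.6% of genes with an added log2 change of 1.5 and 100% with 3. The simulated errors were normal and drawn from the same standard errors that the test used. They therefore do not check whether those standard errors are right. Means written with enough digits were split into whole counts of 5 libraries, all 2257 means under 2 being whole combinations of the 5 steps. From a mean of 20 to 25, 80.95% of genes had 1 solution, and below 10 all had. On simulated data for 3 months, 100% of uniquely split genes were right. The size factors of the 5 libraries lay between 0.8066 and 1.378, and their total depths were not recovered. Coordinates are of GENCODE M21, where 21751 symbols matched, and promoters of RefSeq, where 16375 genes matched.

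The gene lists, the markers and the comparison itself were chosen with earlier results of these data known. Genes named by rule were Esrrg, the 12 called genes with the largest change and the 6 with the largest mean in each direction, the called members of each list with the smallest p (at most 4), the 8 Outlier genes with the largest mean and the 6 in each direction with the largest ratio to the standard error, and the 6 in each direction that differed most between ages, at a mean of at least 50. A few genes that these rules name are not reported here. Members of lists were also named as examples after their values were seen. Alternatives were total-count scaling, median centring, keeping Outlier and Low genes, a mean of at least 50, Bonferroni adjustment, a change of at least 2-fold and females at 3 weeks in place of males. A count model was planned for values per library and was not run.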

Additional observations from a re-analysis of the deposited data

Results flagged for a closer look

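The difference between genotypes was not the same at 3 months and 3 weeks in males, by the normal test of the difference of the 2 fold changes, for 3418 of 12355 genes. The 12 genes with the largest such difference against its error are given as the log2 fold change at 3 months minus that at 3 weeks. Above were Gsdmc2 by 9.37, Abcc3 by 5.85, Scel by 4.68, Lyz2 by 4.25, Angpt2 by 3.56 and Anxa3, annexin A3, by 2.52. Below were Cyp7b1 at -4.77, Slc22a7 at -3.36, Ppara at -2.81, Acot12 at -2.66, Mttp at -2.56 and Etv5, a transcription factor of the ETS family, at -2.46. The ages also differed in depth, with mean totals of 18800000 counts at 3 months and 47500000 at 3 weeks, and in the libraries behind each comparison, and the part of these in the differences was not tested.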

How the results depend on the processing

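Of the counts of calls, 7382 became 3413 with Bonferroni adjustment and 3669 with a change of at least 2-fold. The 3819 higher calls became 7107 with total-count scaling, 1942 with Bonferroni and 2434 at 2-fold, and the 3563 lower calls 1355, 1471 and 1235. Between the ages, the 2076 genes above became 3730 and the 1342 below 548 with total-count scaling, and with females at 3 weeks the genes below were 2169. The cause was not tested beyond what each alternative changes by construction. Signs turned for Kdm5d (0.0782), the mitochondrial ribosome (0.20), the polycystic list (0.24), the sex chromosome genes (a median of 0.0782, that of Kdm5d) and podocytes (0.25) with total-count scaling, and for intercalated cells with Outlier genes kept (-1.0), Outlier and Low genes kept (-1.05) or a mean of at least 50 (-0.23). With normal p-values for Outlier genes, 1072 of 1513 would be called, 527 higher and 545 lower. Of named genes, 18 lost their call with Bonferroni and 133 kept it. With total counts 10 lost their call, 1 changed sign, and 10 Outlier genes kept their sign but moved by their standard error or more. The other 150 kept call and direction or, as Outlier genes without a call, moved by less than their standard error. Leaving out libraries and a count model were not run, since the comparison gives no values per library, and counts could be recovered only up to a mean of 25. No paired analysis was possible because the libraries carry numbers that no groups share. This also limits what can be said of the spread in abundant genes.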
